A study of Rattus norvegicus with 6 samples.

Results

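The genes described here are 45 cell cycle genes chosen by symbol, of which 43 were found among the 32623 genes of the deposited table. They were divided by role into 15 replication genes (14 found), 23 mitosis genes (22 found) and 7 G1 control genes (7 found). Replication genes license origins, unwind and copy DNA, make nucleotides or open S phase. The mitosis genes are those of the spindle and chromosome separation, with regulators of G2 and mitosis, Ccna2 and the proliferation markers Mki67 and Top2a. E2f1 and Ccnb2 were not analysed here. All 43 genes had enough counts to be tested, so none dropped out through a filter on low counts.

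RNA was sequenced from cultured nucleus pulposus cells, which populate the soft centre of the intervertebral disc, taken from the lumbar spine of Sprague-Dawley males at 4 weeks of age and used between passages 3 and 5. Both groups had been exposed to lentivirus for 72 hours. In 3 libraries the virus carried a short hairpin RNA aimed at Bmal1, a core transcription factor of the circadian clock (shBmal1), and in the other 3 a non-targeting control (shNC). The labels name a single Bmal1 hairpin group, with no second hairpin and no rescue, and are silent on how the replicates of a group are related. The p-values therefore reflect the spread among these 6 samples alone, and that spread may be technical. Total counts were 44043803 to 49783710 per shNC library and 8773762 to 11679587 per shBmal1 library.

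The hairpin's target, listed as Arntl, stood at 27.4, 29.7 and 31.7 CPM in shNC and 2.15, 4.25 and 2.07 CPM in shBmal1, or 9.55% of control (CPM are counts scaled to library size, here with TMM factors, the trimmed mean of M values). Of 12 nucleus pulposus and notochord markers, Tbxt and Shh had no count in any library, and 9 passed the count filter. Acan, Col2a1, Pax1 and Krt8 fell, Foxf1 rose (0.56), and Sox9, Krt18, Krt19 and Cd24 did not pass the test. The summed level of the 12 was 1341 to 1405 CPM in shNC and 231 to 275 CPM in shBmal1, and most of it came from Acan (647.6 to 32.8 CPM) and Pax1 (526.8 to 84.9 CPM). Summed markers of blood, endothelial and neural cells were low and did not overlap between the groups, with the higher sums in shBmal1. The 8 blood and immune markers summed to 0.574 to 1.38 CPM in shNC and 3.89 to 5.603 CPM in shBmal1, where Cd68 was called higher (2.81). The 4 endothelial markers found summed to 0.085 to 0.494 CPM and 3.43 to 4.42 CPM, where Vwf (4.06) and Tie1 (3.63) were called higher. Neural markers summed to 5.08 to 6.22 CPM and 7.51 to 9.77 CPM, with Tubb3 called higher (0.57) and Rbfox3 at no count. The 4 epithelial markers summed to 11.9 to 22.1 CPM in shNC but ranged from 9.06 to 133 CPM in shBmal1, with the highest sum in replicate 1. Epcam was called higher (1.62), and Cdh1 and Krt14 did not pass. Epcam stood at 3.23, 2.47 and 3.78 CPM in shNC and 16.5, 3.10 and 9.77 CPM in shBmal1. Mitochondrial rRNA took 0.033 to 0.0602% of counts in shNC and 0.722 to 1.31% in shBmal1. The part of depth, rRNA share and transcripts of other cell types in the results was not tested, apart from fits that leave out 1 library or thin the deeper ones. Without shBmal1 replicate 1, 10 replication genes were higher and 2 lower, and 5 mitosis genes were higher and 11 lower, beside 34.4% of all tested genes higher and 35.3% lower. With shNC counts thinned to the shBmal1 depth, 11 replication genes were higher and 2 lower and 6 mitosis genes were higher and 9 lower, beside 37.3% of all tested genes higher and 34.9% lower.

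A dividing cell passes from G1, where D-type cyclins with CDK4 and CDK6 start the release of E2F factors from the retinoblastoma protein, into S phase, where DNA is copied, and through G2 into mitosis. E2F factors are known to drive genes of replication. Genes of G2 and mitosis are known to be switched on later through the MuvB complex with B-MYB and FOXM1, and to be repressed by the DREAM complex, which binds the CHR element. BMAL1 binds E-box elements, and the circadian clock is known to gate division in several tissues. In bulk RNA, fewer cells in a phase and less of a transcript per cell cannot be told apart.

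The promoter sequences below show how these elements are placed in the genes on which the results turn: Mcm7 and Bub1, which rose most in the replication and mitosis groups, Mcm2, the MCM gene that fell, and Cdk1 and Top2a, which fell. Each is the 250 bases before the gene start in RefSeq (build GRCr8), 5′ to 3′ on the gene's strand, with matches to the searched motifs in capitals.
Mcm7 (chr12:22163179-22163428, reverse strand): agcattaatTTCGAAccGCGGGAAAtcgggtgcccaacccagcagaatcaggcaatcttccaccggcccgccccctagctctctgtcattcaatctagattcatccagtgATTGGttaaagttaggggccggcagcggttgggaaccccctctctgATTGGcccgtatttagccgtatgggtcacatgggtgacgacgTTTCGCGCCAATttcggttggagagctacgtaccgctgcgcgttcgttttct
Mcm2 (chr4:122918095-122918344, reverse strand): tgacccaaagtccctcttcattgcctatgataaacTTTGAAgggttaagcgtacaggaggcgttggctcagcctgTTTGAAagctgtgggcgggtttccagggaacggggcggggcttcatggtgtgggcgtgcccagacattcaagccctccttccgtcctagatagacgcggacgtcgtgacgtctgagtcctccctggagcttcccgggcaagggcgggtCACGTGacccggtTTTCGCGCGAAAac
Cdk1 (chr20:19265043-19265292, forward strand): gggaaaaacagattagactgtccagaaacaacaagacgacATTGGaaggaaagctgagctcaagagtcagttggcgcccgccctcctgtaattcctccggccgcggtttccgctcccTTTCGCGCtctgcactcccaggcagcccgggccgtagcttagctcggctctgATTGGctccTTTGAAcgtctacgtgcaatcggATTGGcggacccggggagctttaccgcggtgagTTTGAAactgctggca
Top2a (chr10:84473094-84473343, reverse strand): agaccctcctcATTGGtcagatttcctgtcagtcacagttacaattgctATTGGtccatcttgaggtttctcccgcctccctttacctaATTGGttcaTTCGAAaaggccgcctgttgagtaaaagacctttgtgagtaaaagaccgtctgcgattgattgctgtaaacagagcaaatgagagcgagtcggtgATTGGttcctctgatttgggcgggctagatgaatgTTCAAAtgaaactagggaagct
Bub1 (chr3:135504922-135505171, reverse strand): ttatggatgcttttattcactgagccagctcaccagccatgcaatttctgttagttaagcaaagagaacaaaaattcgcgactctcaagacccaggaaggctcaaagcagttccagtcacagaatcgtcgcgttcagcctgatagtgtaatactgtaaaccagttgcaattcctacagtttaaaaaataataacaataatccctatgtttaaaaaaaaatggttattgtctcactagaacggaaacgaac

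Motifs were searched on both strands in windows of 300 bases, from 250 bases before to 50 after the gene start. The searched words were TTTGGCGC, TTTCCCGC, TTTCGCGC and TTTGCCGC for E2F, TTTGAA and TTCGAA for CHR, CCAAT, and CACGTG for the E-box. A window was matched by symbol for 32 of the 43 genes. Mcm4, Cdc6, Ccne2 and Rrm2, which fell most among replication genes, were without a match. An E2F word was present in 7 of 10 replication genes and 1 of 18 mitosis genes, and in 2.14% of all 33469 windows. A CHR word was present in 3 of 10 replication genes and 12 of 18 mitosis genes, against 19.7% of all windows, and CCAAT in 6 of 10 and 15 of 18, against 37.5%. The E-box word was found in Mcm2, 27 bases before the start, and in Cdk4, and in 6.42% of all windows. In Mcm7 an E2F word at −52 overlaps a CCAAT word at −45, and in Mcm2 a pair of E2F words at −14 and −10 overlap each other. Cdk1 holds CHR words at −72 and −16 and CCAAT words on the other strand at −210, −81 and −49. Its sequence also holds an E2F word at −133. No searched word was found in the Bub1 sequence. A match is a description of the letters and not a measured binding site.

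Replication genes were mostly higher in shBmal1, whereas mitosis genes were split and G1 control genes fell or did not pass the test. At an adjusted p under 0.05 (edgeR's quasi-likelihood test with Benjamini-Hochberg adjustment over all genes), 11 of 14 replication genes rose, 2 fell and 1 did not pass. Of 22 mitosis genes, 5 rose, 10 fell and 7 did not pass. Over all 14342 tested genes 36.0% rose and 35.3% fell, so that 71.3% were called. The replication genes thus had 78.6% of members higher and 14.3% lower, and the mitosis genes 22.7% higher and 45.5% lower. The median log2 fold change was 0.73 for replication genes and −0.22 for mitosis genes, beside −0.01 for all tested genes. The libraries of the groups did not overlap in CPM for 11 replication genes that were higher and 3 that were lower, and for 5 and 9 mitosis genes. Over all tested genes 77.3% did not overlap, 38.2% higher and 39.1% lower. With FPKM rescaled to TPM over all genes, 6 replication genes were higher and 3 lower, and with a pseudocount of 0.1 in place of 1 the numbers were 4 and 3. Mitosis genes called lower were then 12 in both. In the first of these fits 21.4% of all genes were called higher and 34.2% lower, and in the second 21.0% and 32.5%. With TPM over protein-coding genes alone, 9 replication genes were higher and 3 lower, beside 24.7% and 37.8% of all genes. With TPM over all genes and a pseudocount of 1 the median of the tested genes moved to −0.35 and the share of calls that were higher went from 50.5% to 38.5%. Relative to that median the replication genes stood at 0.67 and the mitosis genes at −0.19, beside 0.75 and −0.20 with TMM.

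The offset between the groups of genes was present in each shBmal1 library. On the log2(CPM + 1) scale and relative to the shNC mean of each gene, the median over the 14 replication genes was 0.68, 0.77 and 0.68 in the 3 shBmal1 libraries. The median over the 22 mitosis genes was −0.23, −0.16 and −0.38 in the same libraries. In the shBmal1 libraries these medians differed by 0.91, 0.93 and 1.06. The shNC libraries differed by 0.03, −0.04 and 0.03, but they set the reference, which keeps their values small. The offset is a description, since the genes were chosen with results of these libraries known, and no test was made over them.

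**Figure D1:**
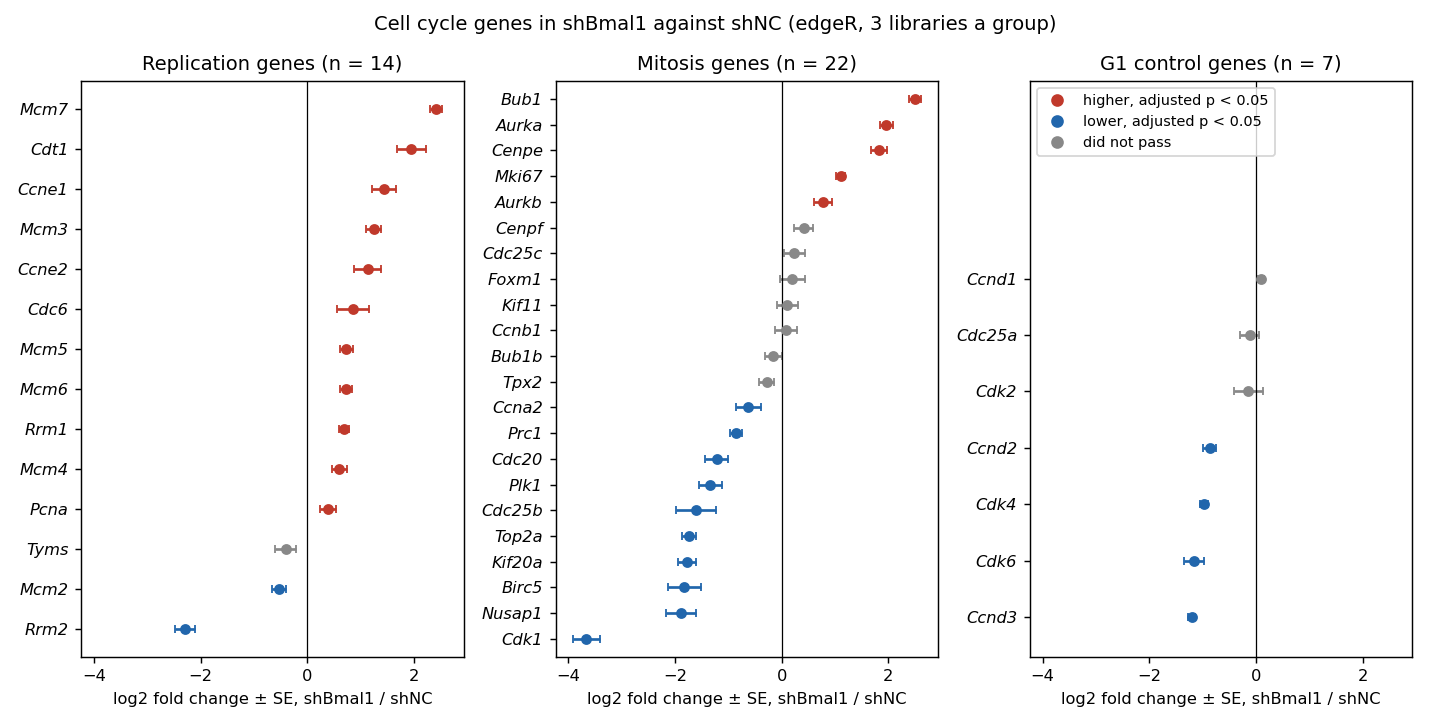
Log2 fold change of each gene in shBmal1 against shNC with its standard error (x axis; edgeR, 3 libraries a group), in 1 panel per role, coloured by call at an adjusted p under 0.05. Replication genes lie mostly right of 0 with Rrm2 far to the left, and mitosis genes run from −3.66 for Cdk1 to 2.50 for Bub1.

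The MCM2-7 complex is the replicative helicase, a ring built from 1 copy of each of 6 related subunits, and 5 of its 6 genes rose. Mcm7 (chromosome 12, 19306607 to 19314016, reverse strand in the deposited table, of a build not stated in the sources used here) stood at 27.6, 24.3 and 25.4 CPM in shNC and 118, 144 and 150.2 CPM in shBmal1. The shBmal1 libraries were all far above the shNC libraries, and the mean was 5.34-fold higher (edgeR log2 fold change 2.42 with an SE of 0.11, adjusted p = 5.88e-07). Mcm3 rose from 9.20 ± 1.05 to 21.9 ± 1.04 CPM (SD, n = 3 per group; log2 fold change 1.25). Mcm5 and Mcm6 both rose by 0.73, and Mcm4 by 0.60. Mcm4 missed the threshold with TPM over all genes (0.20; adjusted p = 0.348, limma) and with TPM over protein-coding genes (0.30; adjusted p = 0.0984, limma), and with TPM and a pseudocount of 0.1 Mcm5 and Mcm6 each came to 0.36 (adjusted p = 0.0553 and 0.055, limma). Mcm2 went the other way. Its values were 45, 36.5 and 37.9 CPM in shNC and 23.6, 29.6 and 29.6 CPM in shBmal1, without overlap (edgeR log2 fold change −0.53 with an SE of 0.13, adjusted p = 0.00663).

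These opposite changes altered the balance of the 6 transcripts within a library. Per length, on the authors' FPKM scale, Mcm7 supplied 24.8, 24.5 and 24.9% of the summed level of Mcm2 to Mcm7 in shNC and 55.2, 56.6 and 58.6% in shBmal1. Mcm2 supplied 29.1 ± 1.49% in shNC and 8.66 ± 0.27% in shBmal1 (SD, n = 3), and so passed from the highest of the 6 to a level like that of Mcm3, Mcm4, Mcm5 and Mcm6, which each held 7.49 to 10.0% there. Mcm7 was 1.64 ± 0.02 times the mean of the other 5 in shNC and 6.59 ± 0.46 times in shBmal1. The Mcm3 share, 7.48 ± 0.83% against 7.70 ± 0.90%, did not differ beyond the spread between libraries (exact two-sided permutation test, p = 0.8). For the other 5 shares the groups did not overlap and the same exact test returned p = 0.1, which is the lowest p this design can reach (0.108 after Benjamini-Hochberg adjustment over 14 shares). The 14 include the Rrm and Cdc25 shares, chosen after their values were seen, and shares within a family depend on each other. Since Mcm2 fell and the other 5 genes rose without overlap, the Mcm2 share had to separate. The Mcm7 gene holds the miRNA genes Mir25, Mir93 and Mir106b on its own strand, and these had at most 3 counts in any library.

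**Figure D2:**
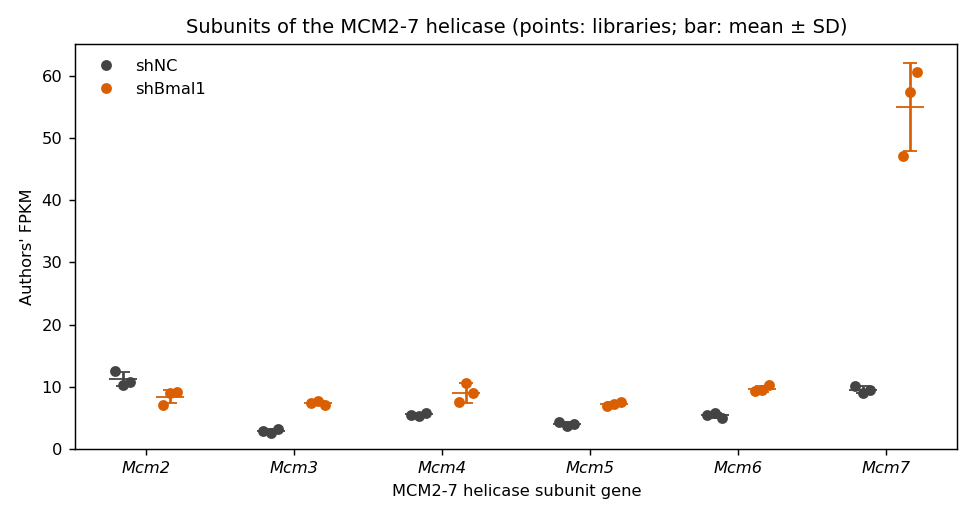
Authors' FPKM of the 6 MCM2-7 subunit genes (y axis) in each library (points) with the group mean and SD, shNC in grey and shBmal1 in orange. In shBmal1 Mcm7 lies between 47.1 and 60.7 FPKM and the other 5 subunits lie at or under 10.6 FPKM.

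Cdt1 and Cdc6, which take part in loading the helicase at origins, were called higher. Cdt1, which brings MCM2-7 to the origin, stood at 3.03, 3.66 and 3.66 CPM in shNC and 18.1, 12.0 and 10.1 CPM in shBmal1 (3.89-fold higher; edgeR log2 fold change 1.95 with an SE of 0.26, adjusted p = 0.000279). All shBmal1 values lay above all shNC values. Cdc6, the loader's partner, was low in both groups, at 2.37 ± 0.47 against 4.29 ± 0.44 CPM. Its adjusted p of 0.0336 (edgeR) was lost without any 1 of the 3 shNC libraries or without shBmal1 replicate 1 or 2 (0.0542 to 0.112), without a count filter (0.0687), with a replicate block (0.0912) and with TPM over all genes (0.0928 and 0.0937, limma).

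Cyclins E1 and E2, which activate CDK2 at the entry into S phase, also rose. Ccne1 values were 5.81, 3.89 and 4.09 CPM in shNC and 11.6, 12.4 and 13.3 CPM in shBmal1 (edgeR log2 fold change 1.44 with an SE of 0.22, adjusted p = 0.000583). Ccne2 values were 5.75, 6.84 and 6.56 CPM in shNC and 11.4, 19.4 and 11.1 CPM in shBmal1 (1.13 ± 0.25; adjusted p = 0.004, edgeR). Replicate 2 was the high library for Ccne2, and Ccne2 did not pass with TPM over all genes (0.61; adjusted p = 0.0621, limma). Ccne2 overlaps Ints8 on the opposite strand over 521 bases, and Ints8 rose by 0.31. The sources used here do not state if strand was used in counting, so reads there cannot be told apart.

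Genes of nucleotide supply and the sliding clamp did not move together. Rrm2, which encodes the small subunit of ribonucleotide reductase that is known to be made in S phase, stood at 21.1, 19.1 and 15.6 CPM in shNC and 3.77, 3.51 and 4.14 CPM in shBmal1 (edgeR log2 fold change −2.29 with an SE of 0.19, adjusted p = 1.48e-05). Rrm1, its large subunit, stood at 53.0, 54.7 and 54.2 CPM in shNC and 93.0, 93.1 and 75.6 CPM in shBmal1 and rose by 0.69, which did not pass with TPM over all genes (0.30, adjusted p = 0.0648, limma). The shNC libraries had FPKM ratios of Rrm1 to Rrm2 of 0.768, 0.873 and 1.06, and the shBmal1 libraries of 7.63, 8.15 and 5.62, with no overlap (exact two-sided permutation test, p = 0.1, the smallest possible). Both genes were already separate in opposite directions, so the outcome of this test was fixed and adds nothing to the results of each gene. Rrm2b, which encodes the alternative small subunit and was chosen after its value was seen, was at 3.43 ± 0.62 and 3.18 ± 1.9 CPM and did not pass (−0.12; adjusted p = 0.825, edgeR).

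Pcna, which encodes the clamp that holds DNA polymerases on the template, was at 24.9, 26.1 and 21.9 CPM in shNC and 27.4, 29.6 and 38.4 CPM in shBmal1. The groups did not overlap, but the rise of 0.39 ± 0.15 (SE; adjusted p = 0.0417, edgeR) was small. It was lost without any 1 of shNC replicates 1, 2 and 3 or of shBmal1 replicates 2 and 3 (adjusted p = 0.0615 to 0.173, edgeR), without a count filter (0.102), with a replicate block (0.0901) and with length-corrected offsets (0.251), and Pcna came to 0.00 with TPM over all genes. Tyms, the thymidylate synthase gene, was at 10.99 ± 1.95 CPM in shNC and 8.31 ± 0.70 CPM in shBmal1 and did not pass (−0.40 ± 0.19; adjusted p = 0.0962, edgeR). With TPM it was called lower, by 0.61 to 0.76 on the log2 scale.

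Mitosis genes whose proteins act in the same complex did not always move together. Cdk1, the kinase that starts mitosis (chromosome 20, 20576377 to 20591509, forward strand in the deposited table), showed the lowest remaining level. Its values were 19.4, 24.2 and 18 CPM in shNC and 1.08, 1.80 and 1.904 CPM in shBmal1, from 758 to 1138 counts per shNC library and 10 to 23 per shBmal1 library. That left 7.76% of the control mean (edgeR log2 fold change −3.66 with an SE of 0.25, adjusted p = 5.31e-06). Its partner cyclin B1 was not lower. Ccnb1 was at 14.6 ± 1.01 CPM in shNC and 15.3 ± 4.02 CPM in shBmal1 (0.08 ± 0.20; adjusted p = 0.743, edgeR), and the FPKM ratio of Ccnb1 to Cdk1 went from 0.633 ± 0.089 to 8.59 ± 1.005. Ccna2, the S and G2 phase cyclin, was called lower (−0.62; adjusted p = 0.0469, edgeR) although its highest shBmal1 library, at 9.27 CPM, overlapped its lowest shNC library, at 9.16 CPM. That call was lost with RLE size factors, DESeq2, thinned shNC counts, a replicate block, length-corrected offsets and in 4 of the 6 fits that left out 1 library (shNC replicate 2 or 3, or shBmal1 replicate 2 or 3), with adjusted p from 0.0505 to 0.137. Ccna2 lies wholly inside Exosc9, on the opposite strand, and Exosc9 rose by 0.53.

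The CDC25 phosphatases, which activate the CDKs, differed among themselves. Cdc25b stood at 16.9, 15.9 and 15.6 CPM in shNC and 7.87, 5.88 and 2.24 CPM in shBmal1 (edgeR log2 fold change −1.61 with an SE of 0.38, adjusted p = 0.00512), with replicate 3 the lowest. Cdc25a (−0.12 ± 0.18; adjusted p = 0.57) and Cdc25c (0.24 ± 0.20; adjusted p = 0.311) did not pass the edgeR test. Of the summed FPKM of the 3 genes, Cdc25b held 45.8 ± 0.70% in shNC and 21.2 ± 10.0% in shBmal1. Foxm1, which encodes a transcription factor of G2 genes, was at 11.04 ± 1.71 and 12.7 ± 3.49 CPM and did not pass (0.20 ± 0.23; adjusted p = 0.466, edgeR).

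Genes of the chromosome passengers and polo kinase moved apart. Birc5, which encodes the passenger subunit survivin, stood at 6.78, 6.38 and 5.25 CPM in shNC and 1.19, 1.88 and 2.07 CPM in shBmal1 (edgeR log2 fold change −1.83 with an SE of 0.31, adjusted p = 0.000947). Aurkb, the kinase of the same complex, rose from 8.35 ± 0.76 to 14.4 ± 1.896 CPM (0.78), and missed the threshold only with TPM and a pseudocount of 0.1 (adjusted p = 0.0535, limma). The FPKM ratio of Aurkb to Birc5 was 0.271 ± 0.028 in shNC and 1.84 ± 0.86 in shBmal1, where replicate 1 was the highest at 2.83. Plk1, a kinase of mitotic entry and spindle assembly, fell to 39.7% of control, from 21.7, 21.1 and 19.0 CPM to 10.0, 8.90 and 5.63 CPM.

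Among genes of the spindle poles, Aurka rose while Tpx2 did not pass the test. Aurka, the centrosome kinase, was at 7.36, 7.14 and 6.51 CPM in shNC and 28.1, 25.9 and 27.8 CPM in shBmal1 (3.89-fold higher; edgeR log2 fold change 1.96 with an SE of 0.12, adjusted p = 3.52e-06). Tpx2, which encodes the microtubule-bound activator of that kinase, was at 26.3 ± 0.68 and 21.6 ± 3.78 CPM and did not pass (−0.28; adjusted p = 0.0995, edgeR), but was called lower without shBmal1 replicate 1 (−0.45; adjusted p = 0.00942, edgeR) and with TPM (adjusted p = 0.00689 to 0.0175, limma). The ratio of Aurka to Tpx2 in FPKM was 0.371 ± 0.015 in shNC and 1.80 ± 0.32 in shBmal1.

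In the spindle checkpoint, which holds cells until chromosomes are attached, Bub1 rose while its relative Bub1b did not pass. Bub1 (chromosome 3, 120373604 to 120404910, reverse strand in the deposited table) was at 13.3, 14.8 and 13.5 CPM in shNC and 78.2, 87.2 and 69.2 CPM in shBmal1, a 5.65-fold higher mean (edgeR log2 fold change 2.50 with an SE of 0.11, adjusted p = 5.31e-07). The lowest shBmal1 library lay far above the highest shNC library. Bub1b, which encodes BubR1, was at 12.6 ± 1.34 and 11.3 ± 0.99 CPM (−0.15 ± 0.16; adjusted p = 0.411, edgeR), but was called lower with TPM over all genes (−0.45, adjusted p = 0.0254, and with a pseudocount of 0.1 −0.52, adjusted p = 0.0328, limma) and over protein-coding genes (−0.36, adjusted p = 0.0322, limma). Cdc20, the target of the checkpoint and activator of the anaphase-promoting complex, fell from 31.7, 30.2 and 30.6 CPM to 9.05, 12.9 and 17.6 CPM (−1.22). Cenpe, the kinetochore motor, rose from 21.2 ± 2.41 to 75.5 ± 13.0 CPM (1.83; adjusted p = 1.35e-05, edgeR), and Cenpf, a large kinetochore protein gene, was at 30.9 ± 1.61 and 41.2 ± 9.82 CPM (0.41; adjusted p = 0.0595, edgeR). Cenpf was called higher with RLE factors (0.47, adjusted p = 0.0356, edgeR), DESeq2 (0.47, adjusted p = 0.0188), thinned shNC counts (0.51, adjusted p = 0.0254, edgeR), length-corrected offsets (0.74, adjusted p = 0.00259, edgeR) and without shBmal1 replicate 3, its lowest library (0.57, adjusted p = 0.00132, edgeR). With TPM over all genes it came to 0.01.

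Kif20a, Nusap1 and Prc1, which act on spindle microtubules, fell, and Kif11 did not pass. Kif20a, a cytokinesis kinesin, was at 36.0, 37.6 and 34.5 CPM in shNC and 10.8, 12.7 and 8.11 CPM in shBmal1 (edgeR log2 fold change −1.78 with an SE of 0.16, adjusted p = 2.95e-05). Kif20a overlaps Cdc23 on the opposite strand over 1910 bases, and Cdc23 fell by 1.09. Nusap1 fell to 26.8% and Prc1, which bundles midzone microtubules, to 55.2% of control. Kif11, the kinesin that separates the poles, was at 12.9 ± 2.04 and 13.9 ± 2.33 CPM and did not pass (0.11; adjusted p = 0.627, edgeR).

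The proliferation markers Top2a and Mki67 moved in opposite directions. Top2a, which encodes the topoisomerase that untangles chromosomes, was at 59.2, 53.0 and 51.3 CPM in shNC and 17.8, 18.1 and 13.5 CPM in shBmal1 (edgeR log2 fold change −1.73 with an SE of 0.13, adjusted p = 1.04e-05). Mki67, which encodes the Ki-67 antigen, was at 63.0, 70.6 and 64.3 CPM in shNC and 149.6, 147.3 and 130.2 CPM in shBmal1 (1.11 ± 0.08; adjusted p = 8.16e-06, edgeR). Neither gene overlapped between the groups.

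**Figure D3:**
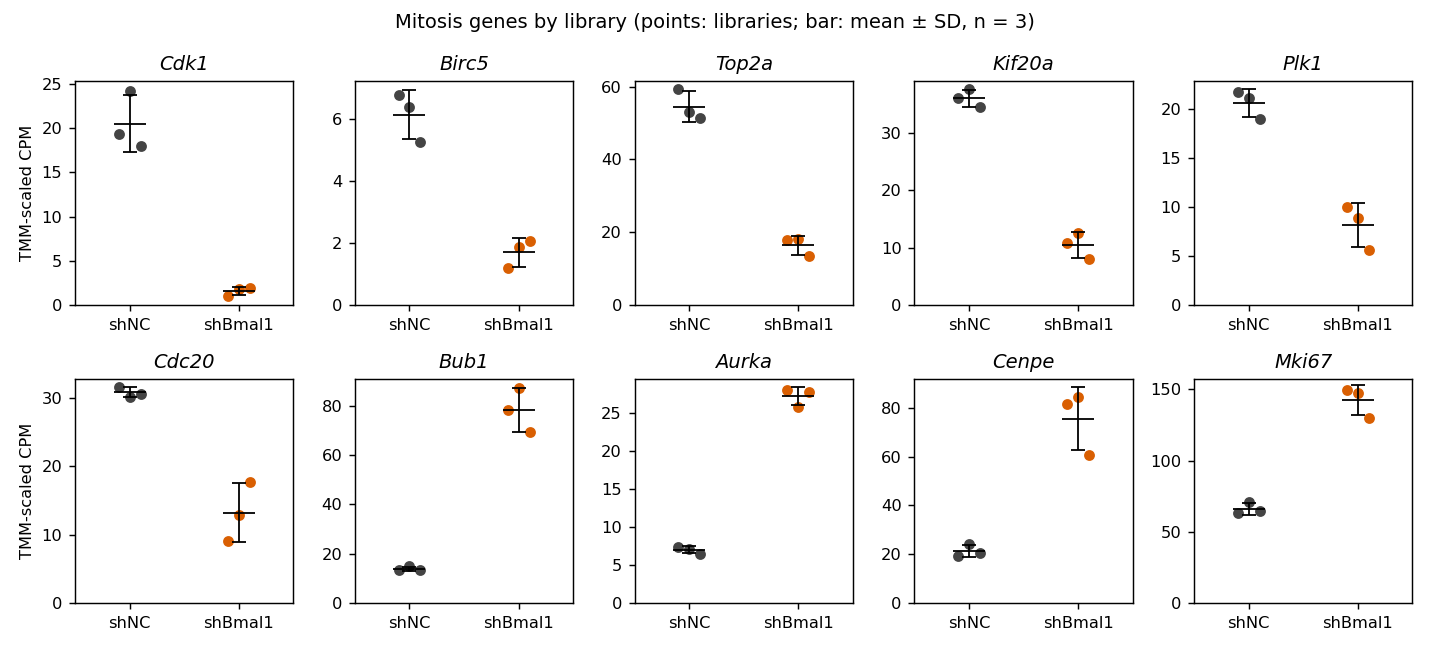
TMM-scaled CPM (y axis, own scale in each panel) of 10 mitosis genes in each library (points) with mean and SD. Cdk1, Birc5, Top2a, Kif20a, Plk1 and Cdc20 are lower in all 3 shBmal1 libraries, and Bub1, Aurka, Cenpe and Mki67 are higher in all 3.

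The promoter words and the direction of change can be set side by side for the mitosis genes whose window was matched. A CHR word was present in 8 of 9 that fell, in 3 of 5 that did not pass and in 1 of 4 that rose, the last being Mki67. CCAAT was present in 9 of 9, 4 of 5 and 2 of 4. Bub1 and Aurka, both 3.89-fold higher or more, held none of the searched words, and Kif20a was the faller without a CHR word. Among replication genes an E2F word was present in 5 of 8 that rose, in Mcm2, which fell, and in Tyms, which did not pass. These counts are small and were made after the fold changes were known, and no test was run on them.

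Gene length also went with the direction among the mitosis genes. The length implied by a gene's count and FPKM was at a median of 4684 bases (2463 to 10293) in the 5 that rose, 2700 bases (912 to 5825) in the 10 that fell and 3573 bases in the 7 that did not pass. Spearman's correlation of length with log2 fold change was 0.519 over these 22 genes, 0.011 over the 14 replication genes and −0.176 over 14326 tested genes, all from the same 6 libraries. Offsets that remove the trend of each library with length follow all tested genes, where the correlation had the opposite sign. They therefore do not take out the trend among mitosis genes. With these offsets 10 replication genes were higher and 2 lower, and 6 mitosis genes were higher and 9 lower, beside 34.9% of all tested genes higher and 35.5% lower. The medians were then 0.90 and −0.03.

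**Figure D4:**
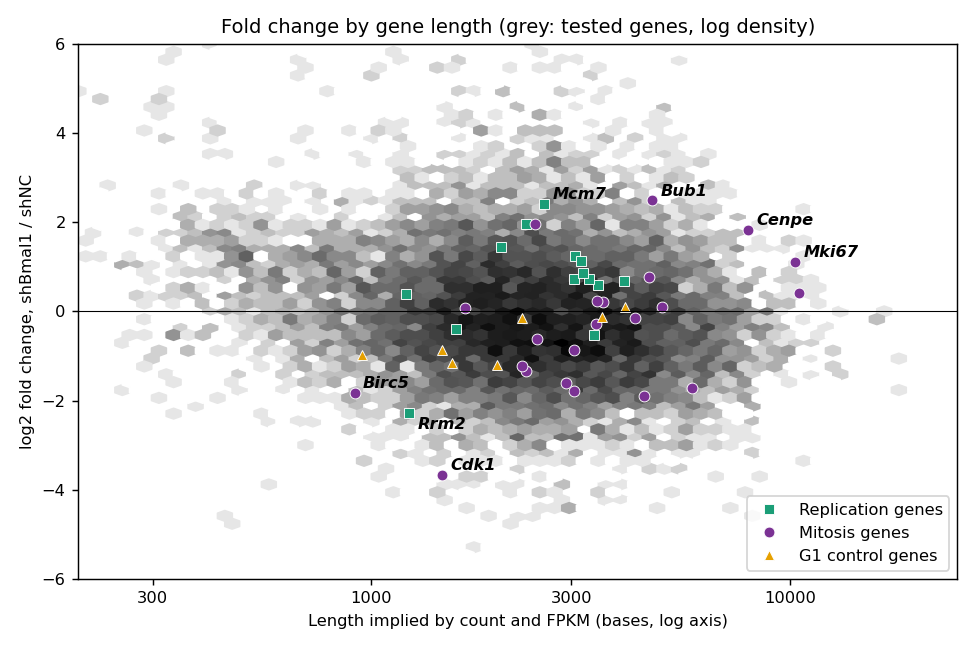
Log2 fold change (y axis) against the gene length implied by count and FPKM (x axis, log scale) for replication genes (squares), mitosis genes (circles) and G1 control genes (triangles), over the log density of all tested genes in grey. Cdk1 and Birc5 are short genes that fell, and Cenpe and Mki67 are long genes that rose.

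Of the 7 G1 control genes, none rose, 4 fell and 3 did not pass the edgeR test, so that 57.1% were lower, beside 35.3% of all tested genes. Ccnd3 fell from 136.7 ± 3.43 to 59.5 ± 2.44 CPM (edgeR log2 fold change −1.20 with an SE of 0.06, adjusted p = 1.47e-06) and Ccnd2 from 51.8 ± 1.94 to 28.4 ± 4.24 CPM (−0.87). Ccnd1, the most abundant D-type cyclin, stood at 652.9, 679.1 and 679.4 CPM in shNC and 734.8, 704.7 and 714.2 CPM in shBmal1. Its groups did not overlap, but the difference of 0.10 ± 0.05 did not pass (adjusted p = 0.121, edgeR) and its direction depended on the scaling. It was called higher with RLE size factors (0.16), DESeq2 (0.16), thinned shNC counts (0.17) and length-corrected offsets (0.30). With TPM over all genes it was called lower at a pseudocount of 1 (−0.27; adjusted p = 0.0406, limma) but not at 0.1 (−0.27; adjusted p = 0.0565, limma). Within a library, which no scaling between libraries affects, Ccnd1 held 61.5 ± 0.38% of D-type cyclin FPKM in shNC and 78.4 ± 0.97% in shBmal1 (exact two-sided permutation test, p = 0.1, the smallest possible). In FPKM Ccnd1 was higher and Ccnd2 and Ccnd3 were lower in every shBmal1 library, so the outcome of this test was fixed by those values.

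The kinases that D-type cyclins activate were lower. Cdk4 was at 81.1, 78.9 and 80.7 CPM in shNC and 39.2, 42.6 and 41.0 CPM in shBmal1 (edgeR log2 fold change −0.97 with an SE of 0.07, adjusted p = 7.75e-06). Cdk6 was at 35.2, 33.9 and 34.4 CPM in shNC and 16.5, 11.1 and 18.8 CPM in shBmal1 (−1.16 ± 0.18; adjusted p = 0.000616, edgeR). Both lost about the same share, with 51.0% and 44.8% of control left. Cdk2, the partner of cyclin E and cyclin A, was at 9.48 ± 0.51 and 8.57 ± 3.19 CPM and did not pass (−0.14 ± 0.27; adjusted p = 0.652, edgeR). Cdk4 overlaps Tspan31 on the opposite strand over 168 bases, and Tspan31 rose by 0.67.

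**Figure D5:**
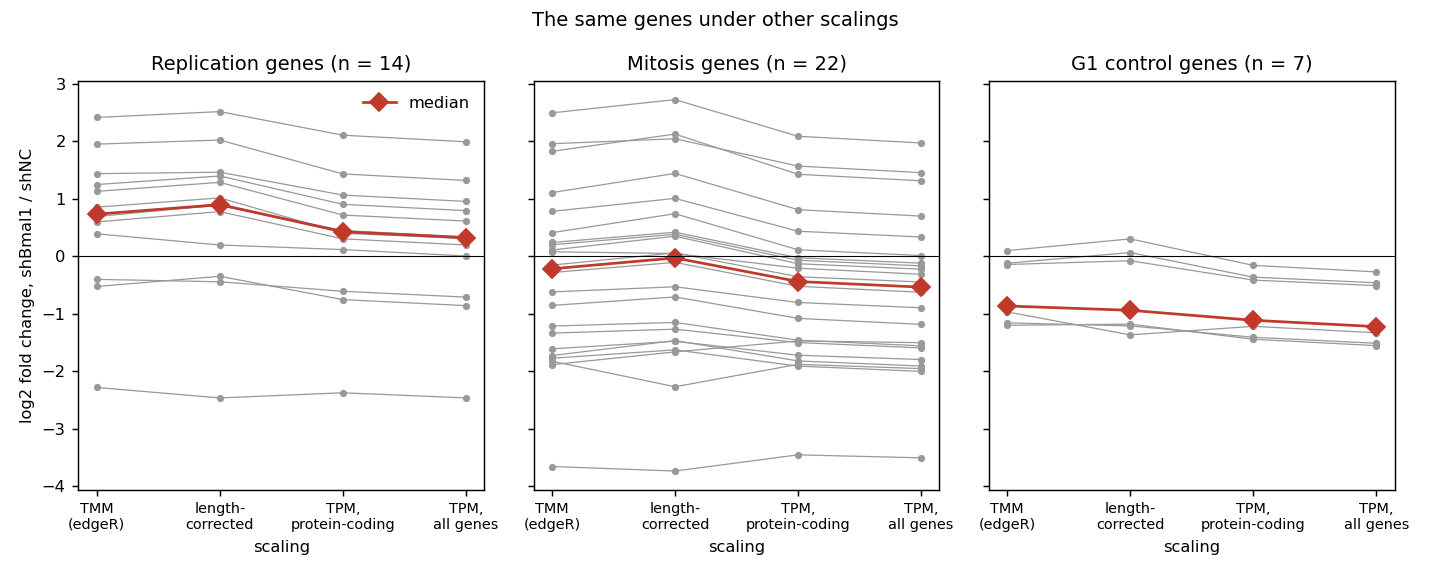
Log2 fold change (y axis) of each gene (grey lines) and the median of its group (red) under 4 scalings (x axis): TMM, TMM with length-corrected offsets, TPM over protein-coding genes and TPM over all genes. The replication median runs from 0.32 to 0.90 and the mitosis median from −0.54 to −0.03.

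A wider set of cell cycle genes, none of them among the 45, was grouped by function. Of 41 tested genes of origins and the replication fork, 19 rose (46.3%) and 7 fell (17.1%), with a median of 0.39, beside 36.0% and 35.3% of all tested genes. Rfc4, a subunit of the clamp loader, rose from 3.48 ± 0.57 to 145.7 ± 24.5 CPM (edgeR log2 fold change 5.39, adjusted p = 1.55e-07) and Fen1, the flap nuclease, by 2.85, while the DNA polymerase delta subunits Pold1 (−1.81) and Pold4 (−1.12) fell. Of 13 nucleotide supply genes, 5 rose (38.5%) and 6 fell (46.2%). The salvage kinase gene Tk1 fell from 33.8 ± 2.80 to 8.07 ± 0.84 CPM and Dut, the dUTPase gene, by 2.51, and Dck, a salvage kinase gene, rose by 3.11. With TPM 2 nucleotide supply genes were higher, beside 21.4% of all genes.

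Of 21 kinetochore and checkpoint genes outside the 45, 11 rose (52.4%) and 5 fell (23.8%), where all tested genes stood at 36.0% and 35.3%. Zwint, which links the kinetochore to the checkpoint, rose from 32.2 ± 1.19 to 297.6 ± 3.89 CPM (edgeR log2 fold change 3.21, adjusted p = 3.68e-08) and Cenpk by 3.25. Spc25 (−2.27) and Cenph (−2.19) fell, Cenph from 3.55 ± 0.26 to 0.80 ± 0.72 CPM. Raw counts of Cenph summed to 474 in shNC and 25 in the shallower shBmal1 libraries. The Cenph call was lost without any 1 shNC library or without shBmal1 replicate 3 (adjusted p = 0.0707 to 0.113, edgeR), and with TPM and a pseudocount of 0.1 (0.0685, limma). Without shNC replicate 1 or 3 the number of the 21 that fell was 3, beside 32.4% and 32.0% of all tested genes. Of 18 condensin and cohesin genes, 10 rose (55.6%) and 2 fell (11.1%), and with TPM 4 fell, beside 34.2% of all genes. Smc4, a condensin core subunit, rose from 47.8 ± 4.36 to 280.8 ± 26.7 CPM and Cdca5, which encodes sororin, by 3.53, while Smc1a (−0.66) and Ncaph2 (−0.65) fell. Of 22 genes of spindle motors and cytokinesis, 7 (31.8%) rose, led by Kif20b (3.37) and Hmmr (2.63), and 10 (45.5%) fell, led by Racgap1 (−2.74) and Cit (−2.14), which both act in cytokinesis.

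Among ubiquitin ligase genes the shares called were near those of all tested genes, 36.0% higher and 35.3% lower. Of 22 genes of the APC/C and SCF ubiquitin ligases, 7 (31.8%) rose, with Fbxw7 (2.69) and Cks2 (2.07) first, and 8 (36.4%) fell, with Anapc1 (−1.70) and Cks1b (−1.42) first. With TPM 2 of these were higher, beside 21.4% of all genes. In the RB, E2F and DREAM group 6 of 19 rose (31.6%) and 4 fell (21.1%). Mybl1, which encodes A-MYB, rose from 23.6 ± 1.49 to 195.3 ± 15.3 CPM and E2f7, which encodes a repressive E2F, by 2.00. Rbl2, which encodes the pocket protein p130 of the DREAM complex, fell from 35.4 ± 0.89 to 9.22 ± 1.66 CPM. Tfdp2 fell by 2.31, from 4.06 ± 0.52 to 0.85 ± 0.86 CPM. Its raw counts summed to 543 in shNC and 26 in the shallower shBmal1 libraries. The Tfdp2 call was lost without any 1 shNC library or without shBmal1 replicate 3 (adjusted p = 0.0785 to 0.103, edgeR), and with shNC counts thinned to the shBmal1 depth (0.0707). With TPM 8 genes of this group fell, beside 34.2% of all genes.

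Of 9 tested kinases and cofactors that act on the CDKs, 4 rose (44.4%) and 3 fell (33.3%), beside 36.0% and 35.3% of all tested genes. Ccnh (1.21) and Cdk7 (1.16), which encode subunits of the CDK-activating kinase, rose. Chek2, a checkpoint kinase gene, fell from 3.48 ± 0.56 to 0.11 ± 0.19 CPM. Its raw counts were 129, 166 and 169 in shNC and 0, 0 and 4 in the shallower shBmal1 libraries. Pkmyt1, an inhibitory kinase of CDK1, fell by 1.39 (adjusted p = 0.0239, edgeR). The Pkmyt1 call was lost without any 1 shNC library or without shBmal1 replicate 2 (adjusted p = 0.0504 to 0.0886, edgeR). Wee1, a clock-regulated inhibitory kinase gene chosen after its value was seen, was at 13.2 ± 0.29 and 15.5 ± 2.57 CPM and did not pass (0.23; adjusted p = 0.235, edgeR). Among 5 tested CDK inhibitor genes 1 rose, Cdkn1a (2.71), and 3 fell, with Cdkn2b (−1.86) and Cdkn1b (−0.96) named here. With RLE factors, DESeq2, thinned shNC counts or without shBmal1 replicate 3, 2 of the 5 were called higher. Those fits called 33.6 to 38.0% of all tested genes higher, so this count is near that share.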

How the data were processed

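RNA-seq was made from 3 shNC and 3 shBmal1 libraries. Per the file headers, the authors deposited unnormalized counts for each gene beside FPKM, which divide by transcript length and by depth; genes with no count are listed at an FPKM of 1e-04. The submitters' processing notes list StringTie 1.3.4d, HISAT2 2.0.4, cutadapt 1.9, DESeq2 and edgeR without their roles. Counting program, strand setting and build are not stated in the sources used here. Groups and replicate numbers came from sample titles.

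Genes were kept by filterByExpr with a minimum count of 10 and a total of 15, and TMM-scaled counts were tested by glmQLFit and glmQLFTest of edgeR 4.0.16 under R 4.3.3 over 14342 genes without a replicate block. A gene was called at a Benjamini-Hochberg adjusted p under 0.05. CPM are given as mean ± SD, and SE of a log2 fold change is the estimate divided by the root of its F statistic. Alternatives used RLE factors, DESeq2 1.42.0, no filter, FPKM rescaled to TPM with limma 3.58.1 on log2(TPM + 1) or log2(TPM + 0.1) at a mean TPM of at least 0.1, so that those folds understate changes of low genes, removal of the 50 most abundant genes, thinning of shNC counts to the mean shBmal1 depth, a replicate block and removal of each library. Length-corrected offsets (a loess on implied length per library) and TPM over protein-coding genes were chosen after seeing the data. The procedure was tested on simulated data in which few genes changed. That simulation does not cover a case where 71.3% of tested genes are called.

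The depth sets the precision: 3 counts equal 0.0603 to 0.0681 CPM per shNC library and 0.257 to 0.342 CPM per shBmal1 library, for counting error only. Libraries of 1 group differed by more than sampling noise, with chi-square over its degrees of freedom at 11.2 to 25.2 per pair. The members and lists were chosen with earlier results of these data known, as were the role groups. All 45 members are reported. From each wider list up to 2 genes that rose most and 2 that fell most were named, among called genes with separate groups and at least 1 CPM in the higher group. 1 gene that the rule names is not reported here. Rrm2b, Wee1, overlapping partner genes, ratios between genes, and the Rrm and Cdc25 shares were chosen after their values were seen. Promoters are RefSeq, build GRCr8, matched by symbol.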

Additional observations from a re-analysis of the deposited data

How the results depend on the processing

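Of the 43 genes, 23 kept their direction and side of the threshold under all 16 alternatives. The number of replication genes called higher was 11 with TMM, 6 with TPM and 4 with TPM and a pseudocount of 0.1. Of all genes, 36.0%, 21.4% and 21.0% were higher in those fits. When 1 library was left out, 9 to 10 replication genes were called higher. Mitosis genes called lower were then 9 to 11 and called higher 5 to 6. Of all tested genes, 32.8 to 34.4% were then higher and 31.8 to 35.3% lower. The difference between the replication and mitosis medians was 0.95, and 0.91 to 1.01 when 1 library was left out, 0.86 with TPM over all genes and 0.87 with TPM over protein-coding genes. G1 control genes called higher went from 0 to 1 (Ccnd1) with RLE factors, DESeq2, thinned shNC counts and length-corrected offsets. Those fits called 34.9 to 38.0% of all tested genes higher. Genes near 0 turned sign, none of them called with TMM. With TPM, with a pseudocount of 0.1 and over protein-coding genes, Ccnb1 came to −0.31, −0.33 and −0.21, Kif11 to −0.22, −0.26 and −0.13, Foxm1 to −0.17, −0.19 and −0.0692, Cdc25c to −0.12, −0.14 and −0.0262 and Ccnd1 to −0.27, −0.27 and −0.16. Length-corrected offsets gave 0.0588 for Bub1b and 0.0648 for Cdc25a, and thinning gave 0.0789 for Cdc25a. Leaving out 1 library gave −0.13 to 0.23 for Ccnb1, −0.0349 to 0.21 for Kif11 (−0.0217 without shNC replicate 1), −0.0187 to 0.37 for Foxm1, −0.51 to 0.0397 for Cdk2 and −0.252 to 0.696 percentage points for the Mcm3 share. The cause of these shifts was not tested. By counts and not per length, the rise of the Ccnd1 share was 11.04 percentage points.

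With a replicate block 9 replication genes were higher and 2 lower, 5 mitosis genes were higher and 9 lower, beside 32.5% of all tested genes higher and 33.1% lower, and the difference between medians was 0.96. Pcna, Cdc6 and Ccna2 lost their calls, as did Cenph and Tfdp2. Deviations of same-numbered libraries correlated at −0.0705, −0.00258 and 0.0203 over 14342 genes, which gives no sign of pairing by number. With 3 libraries a group and unlike depths, these values cannot exclude pairing. Depth limits genes of a few CPM in shBmal1, such as Cdk1 and Birc5, where 10 to 25 counts set the level.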
